A study of Mus musculus with 5 samples.

Results

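The 42 genes described here encode proteins that act in the G2 phase and in mitosis, the steps of the cell cycle in which a cell prepares to divide, sorts its copied chromosomes and splits. They were chosen as a list of named genes, with earlier results of these data known. Every probe set that the array annotation assigns to 1 listed gene was taken. Of the 42 genes, 41 had such a probe set, and Ccnb1, which encodes cyclin B1, was not analysed here. Ccnf and Plk1 were measured but fell below the filter on dim probe sets, which left 39 genes among the 12536 tested in all. The 41 genes had 92 probe sets, of which 76 passed the filter.

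RNA came from sorted tracheal epithelial cells of male and female C57BL/6 mice, 8 to 12 weeks old, with no genetic change or drug named in the labels. Each of the 5 arrays carried RNA of a separate pool of 10 to 15 mice, so the tests measure the spread between pools, and every level is a mean over many animals. The 2 basal arrays held cells of the surface epithelium, loosened with dispase in the lower trachea and sorted as positive for a surface antigen and for ITGA6. The 3 duct arrays held cells of the ducts of the submucosal glands, from the upper part of the trachea, which were sorted for the first antigen alone once pronase had taken off the surface epithelium. Enzyme, tracheal section and sort gate therefore changed together with the cell type, and their effects cannot be told apart. Values are linear intensities in arbitrary units, and a difference is the mean log2(intensity + 16) of the duct arrays less that of the basal arrays, so that changes of dim genes come out too small. An array value was taken as above background where it exceeded the brightest of 27 control probe sets for Bacillus transcripts on the same array.

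No list of duct cell markers was used. The keratins Krt5 and Krt15 and the transcription factor Trp63, which mark airway basal cells, were above background on all 5 arrays. Summed over the 6 measured of 7 basal cell markers, the level was 47795 to 51508 on the basal arrays and 69861 to 80866 on the duct arrays. Most of that gap came from the keratin Krt14, at 1327 and 1533 in the basal pools and 18615, 18421 and 22413 in the duct pools, and the markers did not point one way. Of the 6, 4 had a positive difference, while Trp63 (-0.33) and the neurotrophin receptor Ngfr (-1.76) were lower on every duct array than on either basal array. All 4 pan-epithelial markers had a positive difference, and their sum was 43642 to 46233 on the basal and 49407 to 54707 on the duct arrays. Of 9 measured leukocyte markers, 7 had a positive difference and Coro1a was above background on no array, and their sum ran from 6008 to 17863 on the basal and from 14206 to 20535 on the duct arrays, most of it from Lyz2. The sum of 5 measured of 7 thyroid markers was 328 to 360.0 on the basal and 9213 to 21078 on the duct arrays, where the thyroid gene Tg supplied most of it. Sums for endothelial, fibroblast, ciliated, club and erythroid markers overlapped between the groups. The part of these other cells in the results on mitosis genes was not tested.

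Cyclin-dependent kinase 1, bound to a cyclin of the A or B type, drives entry into mitosis, and its activity falls when the anaphase promoting complex marks the cyclins for destruction. Many genes of this set are switched off in resting cells by the DREAM complex and switched on late in the cycle by B-Myb with MuvB and by FoxM1. These complexes act through a promoter element called the cell cycle homology region, often together with CCAAT boxes bound by NF-Y. Most mitotic transcripts are abundant only while a cell divides, so in RNA from a sorted population a larger share of dividing cells and more RNA per dividing cell cannot be told apart. Basal cells of the mouse trachea are known as progenitors of the surface epithelium, and gland ducts have been studied as a further progenitor site.

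Promoter sequences are shown for 6 genes because most genes of the list differed in one direction and are known to share these elements. RefSeq promoter windows on GRCm38.p6, from 250 bases before to 50 bases after the transcription start, were matched for 35 of the 42 genes (37 windows). The genes without a match were Foxm1, Aurkb, Pbk, Ccna2, Tpx2, Kif20a and Smc4. The cell cycle homology region was searched as TTTGAA or TTCGAA and the CCAAT box as CCAAT, each on both strands. TTCGAA reads the same on both strands and was counted once, and CCAAT matches on opposite strands can overlap. The printed stretches are the 200 bases before the start, on the strand of the gene, from the tested genes with both motifs wholly upstream of the start, of which there were 12, taking the 6 with the largest difference. They are chr5:45669725-45669924 (plus strand) for Ncapg, chr7:135716380-135716579 (minus strand) for Mki67, chr11:99024190-99024389 (minus strand) for Top2a, chr2:164769729-164769928 (plus strand) for Ube2c, chr10:69352913-69353112 (minus strand) for Cdk1 and chr4:52439021-52439220 (plus strand) for Smc2. Capitals mark the 2 motifs in either orientation (TTTGAA or its reverse TTCAAA or else TTCGAA for the first, and CCAAT or ATTGG for the second).
Ncapg: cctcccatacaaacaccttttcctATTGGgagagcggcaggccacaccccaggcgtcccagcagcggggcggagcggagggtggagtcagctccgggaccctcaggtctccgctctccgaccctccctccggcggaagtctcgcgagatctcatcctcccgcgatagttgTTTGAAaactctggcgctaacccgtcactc
Mki67: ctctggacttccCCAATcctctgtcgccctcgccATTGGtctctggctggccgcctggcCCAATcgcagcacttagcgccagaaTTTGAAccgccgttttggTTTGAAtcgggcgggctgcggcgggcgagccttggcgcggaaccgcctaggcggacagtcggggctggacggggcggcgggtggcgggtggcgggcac
Top2a: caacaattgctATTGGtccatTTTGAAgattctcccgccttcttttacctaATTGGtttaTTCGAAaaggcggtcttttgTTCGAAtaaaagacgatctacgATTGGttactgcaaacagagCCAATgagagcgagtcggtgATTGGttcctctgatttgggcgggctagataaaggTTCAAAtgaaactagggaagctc
Ube2c: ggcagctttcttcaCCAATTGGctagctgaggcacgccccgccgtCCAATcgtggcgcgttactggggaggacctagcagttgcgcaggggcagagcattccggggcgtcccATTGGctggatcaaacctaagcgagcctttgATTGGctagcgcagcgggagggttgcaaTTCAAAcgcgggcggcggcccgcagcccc
Cdk1: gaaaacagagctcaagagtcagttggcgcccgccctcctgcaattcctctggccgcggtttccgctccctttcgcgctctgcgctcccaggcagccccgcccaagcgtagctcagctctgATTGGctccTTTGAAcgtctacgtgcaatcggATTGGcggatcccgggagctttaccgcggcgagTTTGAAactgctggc
Smc2: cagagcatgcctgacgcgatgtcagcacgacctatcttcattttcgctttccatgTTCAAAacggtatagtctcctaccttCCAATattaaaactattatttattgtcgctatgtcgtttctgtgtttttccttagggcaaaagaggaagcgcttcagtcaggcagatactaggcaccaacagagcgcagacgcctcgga
Top2a, with 4 matches of the first and 5 of the second motif, held the most of the 6 stretches. In Ube2c 2 CCAAT matches on opposite strands overlap.

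Over the whole 300-base window, 30 of the 37 windows (81.1%) held the cell cycle homology motif, against 19.2% of all 32851 windows. CCAAT was found in 29 of 37 (78.4%), against 37.4% of all windows, and both motifs in 27 (73%), against 7.52%. In the bases upstream of the start alone, the shares were 40.5% against 17.1% for the first motif, 78.4% against 33.8% for CCAAT and 37.8% against 6.02% for both. Ndc80, the gene with the largest difference between the groups, had the first motif only 30 bases after its start and no CCAAT match. Aurka, Bub1 and Hmmr, whose leading probe sets had negative differences, held both motifs in their windows. A match is a description of these letters and not evidence of a bound site.

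The mitosis genes measured higher in duct than in basal cells as a group, although only 1 of them passed the test across all genes. The median difference over the 39 tested genes was 1.28, or 2.42-fold, whereas the median over all 12536 genes was -0.12. After quantile normalization the 2 medians were 1.33 and -0.04, and after median centring of each array they were 1.48 and 0.08. In 35 of the 39 the difference was positive and in 25 it was over 1. All 3 duct arrays lay above both basal arrays in 29 genes, against 16.5% of all genes, and below both in 1 gene, Aurka, against 22.6%. These 29 differences ran from 1.76-fold in Ccnb2 to 5.45-fold in Ndc80. By the moderated test of limma with Benjamini-Hochberg adjustment, 1 of the 39 was called higher (adjusted p under 0.05), against 0.838% of all genes, and 0 were called lower, against 0.136%. At an unadjusted p under 0.05, 28 of the 39 were higher, against 7.91% of all genes, and 0 lower, against 10.6%. Adjusted p in the other tested members ran from 0.0679 in Mki67 to 0.908 in Bub1. The plot of intensities by gene shows the separation of the arrays, and the plot of differences shows the sizes with their errors.

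**Figure D1:**
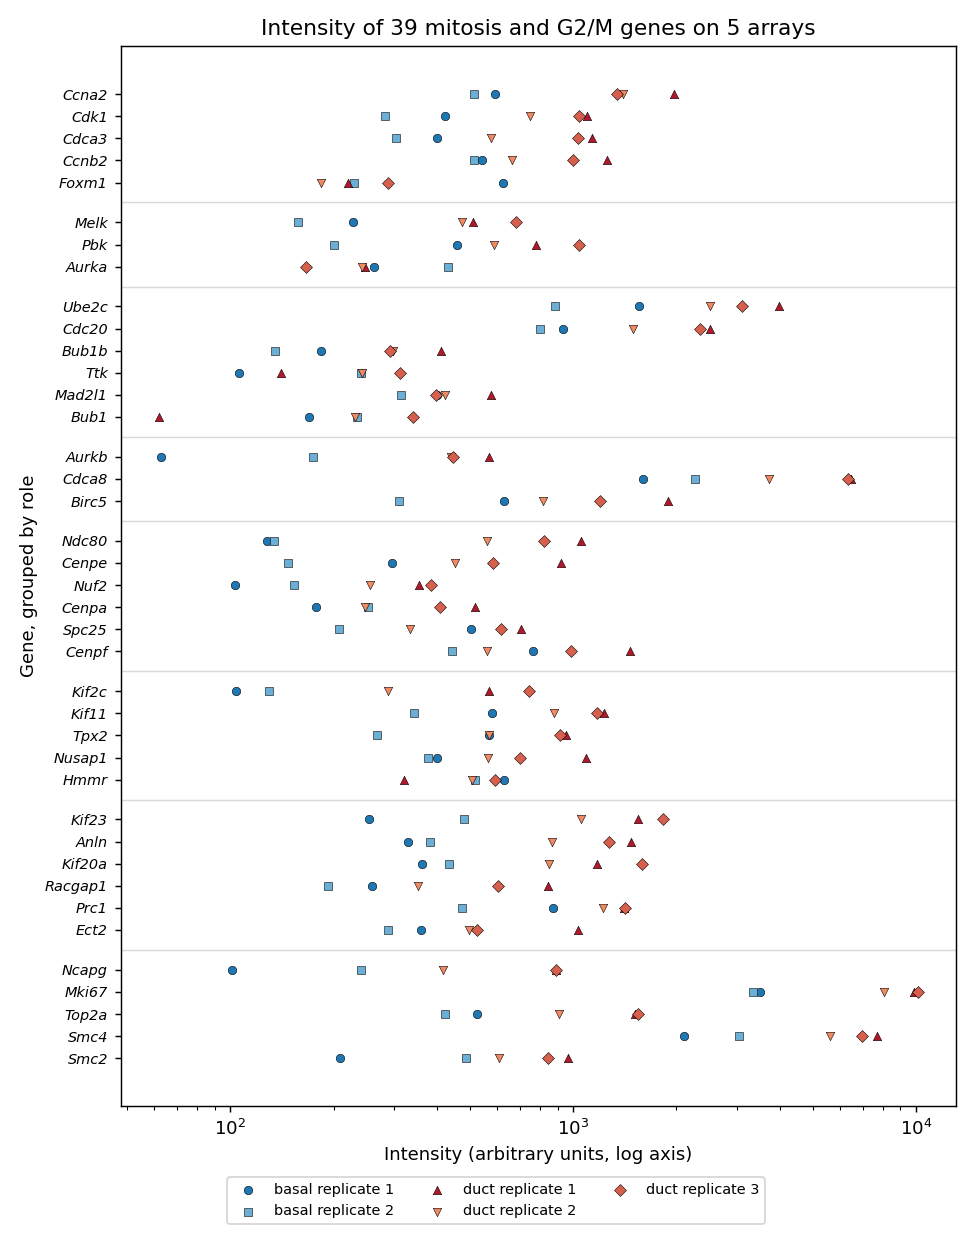
Intensity (log axis, arbitrary units) of the 39 tested genes on each of the 5 arrays, 1 symbol per array, with the genes grouped by role. In 29 genes the 3 duct symbols all lie to the right of both basal symbols, and in Aurka they all lie to the left.

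**Figure D2:**
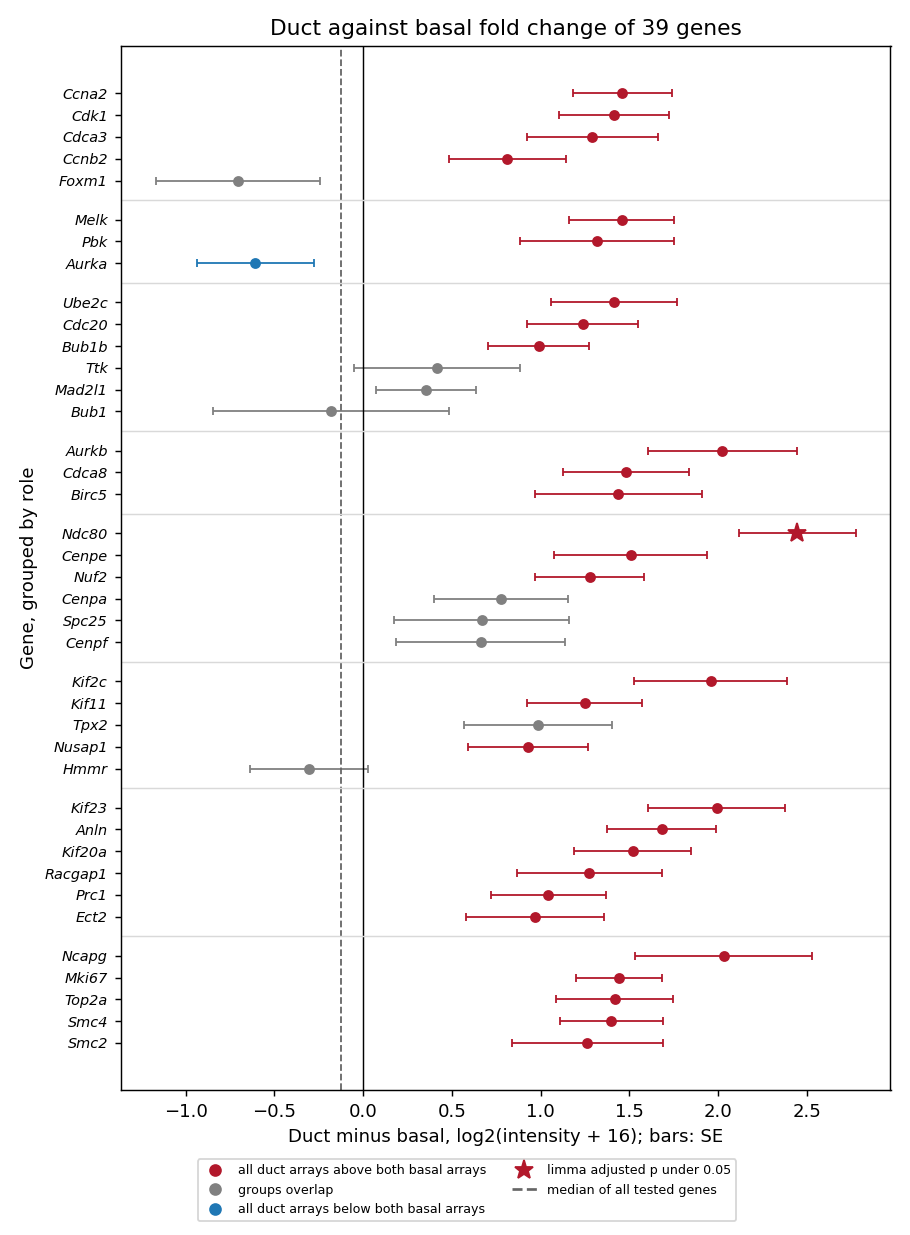
Difference between duct and basal arrays on the log2(intensity + 16) scale for the 39 tested genes, grouped by role, with bars for the standard error of the limma fit (2 basal and 3 duct arrays). Red marks genes whose duct arrays all lie above both basal arrays, blue those where all lie below, grey those with overlap, a star an adjusted p under 0.05, and the dashed line the median of all genes. In 25 genes the value is over 1, Ndc80 is the highest at 2.45, and Foxm1 is the lowest at -0.71.

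The number of members called depended on the analysis. It was 0 with no filter on dim probe sets or with any single array left out, and 17 with an intensity trend and robust variance, where 4.51% of all genes were called higher. The median over the members moved less, from 1.01 to 1.48 over the alternatives. Members with all duct arrays above both basal arrays numbered 26 to 34, while the share of all genes ran from 13.7% with no filter to 27.6% without basal replicate 2. With 1 array left out, where fewer arrays have to be in order, the count was 30 to 34 and the share 20% to 27.6%.

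**Figure D3:**
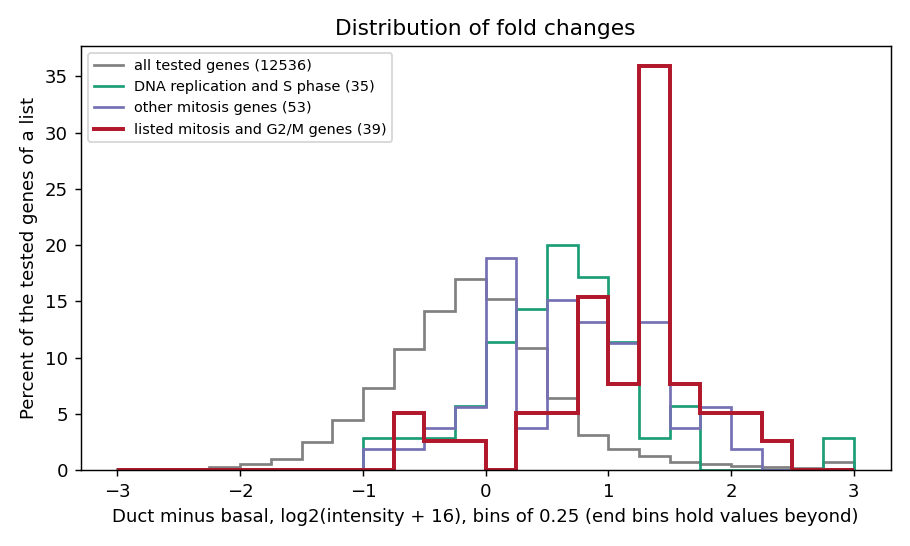
Distribution of the difference between duct and basal arrays (log2, bins of 0.25, with values beyond the axis placed in the end bins) as a percent of the genes in each set: the 39 mitosis and G2/M genes, 53 other mitosis genes, 35 genes of DNA replication and S phase, and all 12536 tested genes. The 39 genes centre on 1.28, the other mitosis genes on 0.68, the S phase genes on 0.66 and all genes on -0.12.

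Among the cyclins, Cdk1 and its partners in transcription, 4 of 5 tested genes had all duct arrays above both basal arrays, 3 had an unadjusted p under 0.05, and the median difference was 1.29. For this group and the role groups below, the shares of all genes were 16.5% with all duct arrays above and 7.91% higher at that p. Ccna2, the cyclin of S phase and early mitosis, measured 592 and 513 in the basal pools and 1968, 1393 and 1342 in the duct pools, in replicate order here and below. The difference was 1.46 (SE 0.28, adjusted p = 0.0814), with duct replicate 1 the highest and no overlap between the groups. Cdk1 itself measured 423 and 283 in the basal pools and 1095, 747 and 1039 in the duct pools, a difference of 1.41 (SE 0.31, adjusted p = 0.103). Its groups did not overlap, and duct replicate 2 was the lowest duct array. Cdca3, which promotes the destruction of the mitosis inhibitor Wee1, differed by 1.29 (0.58 with the mean of probe sets), and the B-type cyclin Ccnb2 by 0.81. The mean of probe sets, here and below, takes in every probe set of a gene, also those too dim to test. For Cdca3 the other probe sets in that mean were above background on no array.

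Foxm1, a transcription factor of G2 genes, gave opposite signs on its 2 tested probe sets. The more intense one measured 626 and 230.1 in the basal pools and 221, 184 and 289 in the duct pools, a difference of -0.71 (SE 0.46, adjusted p = 0.468), and basal replicate 1 stood above all other arrays. Without basal replicate 1 the difference was -0.02 and without basal replicate 2 it was -1.40. The second measured 113 and 14.5 in the basal pools and 429.9, 88.9 and 208 in the duct pools, a difference of 1.80, with basal replicate 2 below background and duct replicate 2 below basal replicate 1. No direction can be given for Foxm1 from these arrays. Ccnf, the F-box cyclin, was not tested, and its brighter probe set measured 74.5 and 47.1 in the basal pools and 221, 5.03 and 144 in the duct pools, with duct replicate 2 and basal replicate 2 below background and the groups overlapping.

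Of the 3 tested mitotic kinases, Melk and Pbk lay higher on all duct arrays, both with an unadjusted p under 0.05, and Aurka lay lower on all of them. Melk, a kinase expressed in dividing progenitors, measured 227 and 158 in the basal pools and 509, 474 and 682 in the duct pools, a difference of 1.46 (SE 0.29, adjusted p = 0.0907). Pbk differed by 1.32. Aurka, the kinase of centrosomes and spindle poles, measured 262 and 431 in the basal pools and 247, 242 and 166 in the duct pools, a difference of -0.61 (SE 0.33, adjusted p = 0.383). The direction of this probe set was thus opposite to that of most of the list, without passing the test. The second probe set of Aurka gave -0.41 with overlapping groups. It measured 164 and 171 in the basal pools and 56.3, 159 and 193 in the duct pools, with duct replicate 3 above both basal arrays. Plk1, which acts from entry into mitosis to cytokinesis, measured 21 and 15.7 in the basal pools and 221, 27.5 and 30.3 in the duct pools and was above background only on duct replicate 1, so no comparison was made.

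The spindle assembly checkpoint delays anaphase until every chromosome is attached, and the anaphase promoting complex with Cdc20 ends the delay. Of 6 tested genes in this group, 3 had an unadjusted p under 0.05 and the same number had no overlap between the groups, with a median of 0.70. Ube2c, the ubiquitin-conjugating enzyme of the complex, measured 1551 and 882 in the basal pools and 3979.8, 2511 and 3114 in the duct pools, a difference of 1.41 (SE 0.36, adjusted p = 0.129). The 3 duct arrays all exceeded the higher basal array. Cdc20, its activator, differed by 1.24. The checkpoint proteins gave smaller values, with 0.99 for Bub1b, 0.42 for the kinase Ttk and 0.35 for Mad2l1. Bub1, the checkpoint kinase, measured 169.8 and 234 in the basal pools and 61.8, 231 and 341 in the duct pools, a difference of -0.18 (SE 0.66, adjusted p = 0.908) that turned to 0.11 after quantile normalization and 0.02 after median centring. Duct replicates 1 and 3 were its lowest and highest arrays, and this 5.52-fold range among duct arrays was the widest of the 39 genes. The second probe set of Bub1 measured 97 and 105 in the basal pools and 267, 159.8 and 217 in the duct pools, with no overlap and a difference of 0.95.

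All 3 listed members of the chromosomal passenger complex, which corrects faulty attachments and then guides cytokinesis, lay higher on every duct array. Each had an unadjusted p under 0.05, and their median was 1.48. Aurkb, the kinase of the complex, measured 62.8 and 174 in the basal pools and 568, 439.9 and 446 in the duct pools. The difference was 2.02 (SE 0.42, adjusted p = 0.0936). The 2 basal arrays differed 2.77-fold from each other in this gene, and both lay well below all duct arrays. Basal replicate 1 was only just above the background level of its array, 59.7. Without basal replicate 1 the difference was 1.39 and without basal replicate 2 it was 2.66. The second probe set of Aurkb gave 1.49, also without overlap. With possibly cross-hybridising probe sets left out, Aurkb was not tested. Birc5, known as survivin, measured 627 and 311 in the basal pools and 1883, 814 and 1195 in the duct pools, a difference of 1.44 (SE 0.47, adjusted p = 0.200). Cdca8, known as borealin, differed by 1.48. Incenp, a further subunit that was counted among the other mitosis genes, was also higher on every duct array. Its difference was smaller, at 0.49 (limma, unadjusted p = 0.199, adjusted p = 0.488).

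Ndc80, the kinetochore subunit that grips microtubule ends, was the only member called, and it also had the largest difference of the list. It measured 128 and 134 in the basal pools and 1054, 559.8 and 823 in the duct pools. The basal arrays were close together, and the lowest duct array, replicate 2, was far above both. Ndc80 rose in duct cells by 2.45 (SE 0.33), or 5.45-fold, with limma's adjusted p = 0.0427. Means were 131 ± 4.29 (SD, n = 2) in basal and 812 ± 247 (SD, n = 3) in duct cells. The call did not hold in the fit over all 27022 probe sets (adjusted p = 0.0835), with no filter (adjusted p = 0.101), or with any 1 of the 5 arrays left out. In those 5 fits the adjusted p ran from 0.0752, without duct replicate 2, to 0.257, without basal replicate 1, while the difference stayed between 2.13 and 2.69 over the alternatives.

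Of the other centromere and kinetochore genes, Nuf2, the partner of Ndc80 in the same complex, differed by 1.28, and the kinetochore motor Cenpe by 1.51. Both had no overlap between the groups. A second probe set of Cenpe was below background on both basal arrays and was at least 3.91-fold higher in duct cells, against the background level of those arrays. Cenpf, a large kinetochore protein, measured 765 and 444 in the basal pools and 1464, 559 and 983 in the duct pools, a difference of 0.66 (SE 0.48, adjusted p = 0.505), with duct replicate 2 between the basal arrays. Spc25, another subunit of the Ndc80 complex, measured 504 and 208 in the basal pools and 703, 335 and 614 in the duct pools, a difference of 0.67 (SE 0.49, adjusted p = 0.516). Here too duct replicate 2 lay between the basal arrays, and a second probe set gave -0.04. The difference was 1.28 without basal replicate 1 and 0.06 without basal replicate 2. Cenpa, the histone variant of the centromere, measured 178 and 252 in the basal pools and 518, 247 and 409 in the duct pools, a difference of 0.78 (SE 0.38, adjusted p = 0.339). Duct replicate 2 was just under basal replicate 2. The other tested probe sets of Cenpa gave 0.70, with all duct arrays above both basal arrays, and -0.68, with all duct arrays below both. Over the 6 genes the median was 1.03, with 3 free of overlap and at an unadjusted p under 0.05, Ndc80 among them.

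Spindle motors and microtubule binding proteins were divided, with 3 of 5 genes free of overlap, those 3 with an unadjusted p under 0.05, and a median of 0.98. Kif2c, a motor that takes microtubules apart at the centromere, measured 104 and 129.6 in the basal pools and 568, 289 and 741 in the duct pools, a difference of 1.96 (SE 0.43, adjusted p = 0.103). All duct arrays exceeded both basal arrays, but its other tested probe sets gave 1.17 and -0.29, and the mean of probe sets 0.92. Kif11, the motor that pushes spindle poles apart, differed by 1.25, and Nusap1, which bundles spindle microtubules, by 0.93. The other tested probe sets of Kif11 gave 1.44 without overlap and 0.54 with overlapping groups. Tpx2, the activator of Aurora A, measured 568 and 268 in the basal pools and 954, 567 and 914 in the duct pools, a difference of 0.98 (SE 0.42, adjusted p = 0.287). Duct replicate 2 was just under basal replicate 1, and the other tested probe sets gave -0.82 and -0.44. Hmmr, a hyaluronan receptor that also binds the spindle, measured 628 and 516 in the basal pools and 321, 505 and 591 in the duct pools, a difference of -0.30 (SE 0.33, adjusted p = 0.666). Its groups overlapped, and its other tested probe sets gave 0.14, 0.35 and 0.83.

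All 6 genes of the midzone and of cytokinesis, the last steps of division, measured higher on every duct array than on either basal array, each with an unadjusted p under 0.05 and with a median of 1.40. Kif23, a motor of the centralspindlin complex, measured 255 and 479 in the basal pools and 1543, 1054 and 1832 in the duct pools, a difference of 1.99 (SE 0.39, adjusted p = 0.0845). The groups did not overlap, although the basal arrays differed 1.88-fold from each other. Its second tested probe set gave 1.07, also without overlap, and stood for the gene after quantile normalization (1.15) and without duct replicate 1 (1.05), 2 (1.26) or 3 (0.88). The mean of probe sets gave 1.10. Racgap1, the other subunit of centralspindlin, differed by 1.27, and by 0.87 with overlapping groups on its second tested probe set. Anln, a scaffold of the cleavage furrow, differed by 1.68, but its second tested probe set gave 0.31 with overlapping groups and the mean of probe sets 1.00. The midzone motor Kif20a differed by 1.52 and the microtubule bundler Prc1 by 1.04. Ect2, the exchange factor that activates RhoA at the furrow, measured 360.2 and 288 in the basal pools and 1030.3, 498 and 523 in the duct pools, a difference of 0.97 (SE 0.39, adjusted p = 0.268). Duct replicate 1 stood high, and the other duct arrays lay closer to the basal arrays than to it.

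The 5 genes of chromosome structure also showed no overlap, each with an unadjusted p under 0.05 and with a median of 1.42. Ncapg, a subunit of condensin I, measured 101 and 241 in the basal pools and 889, 418 and 890.2 in the duct pools, a difference of 2.03 (SE 0.50, adjusted p = 0.124). The basal arrays differed 2.38-fold in this gene and the duct arrays 2.13-fold. Smc2, the core subunit of both condensins, measured 209 and 486 in the basal pools and 967, 606 and 843 in the duct pools, a difference of 1.26 (SE 0.42, adjusted p = 0.207), and its partner Smc4 differed by 1.40. Mki67, the coat protein of mitotic chromosomes used as the marker of cycling cells, measured 3498 and 3335 in the basal pools and 9888, 8038 and 10093 in the duct pools, a difference of 1.44 (SE 0.24, adjusted p = 0.0679). Its arrays were tight within each group. Top2a, which untangles copied DNA, differed by 1.42, but its second tested probe set gave 0.13 with overlapping groups and the mean of probe sets 0.65. That mean also holds a probe set of Top2a that was above background on no array.

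Probe sets of the same gene mostly pointed the same way. Of 26 genes with several tested probe sets, 18 had positive differences on all of them, 1 (Aurka) had negative ones on all, and 7 differed in sign. Those 7 were Foxm1, Bub1, Cenpa, Spc25, Kif2c, Tpx2 and Hmmr. The other 13 genes had 1 tested probe set each. Of the 76 tested probe sets, 66 had a positive difference, with a median of 1.17 against -0.13 for all probe sets. All duct arrays were above both basal arrays in 50 of them, against 14.9% of all probe sets, and below in 2, against 20.7%. In the limma fit by probe set 0 were called, against 0.215% of all probe sets called higher. Probe sets of 1 gene are not independent of each other, and 5 of the 92 were above background on no array.

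**Figure D4:**
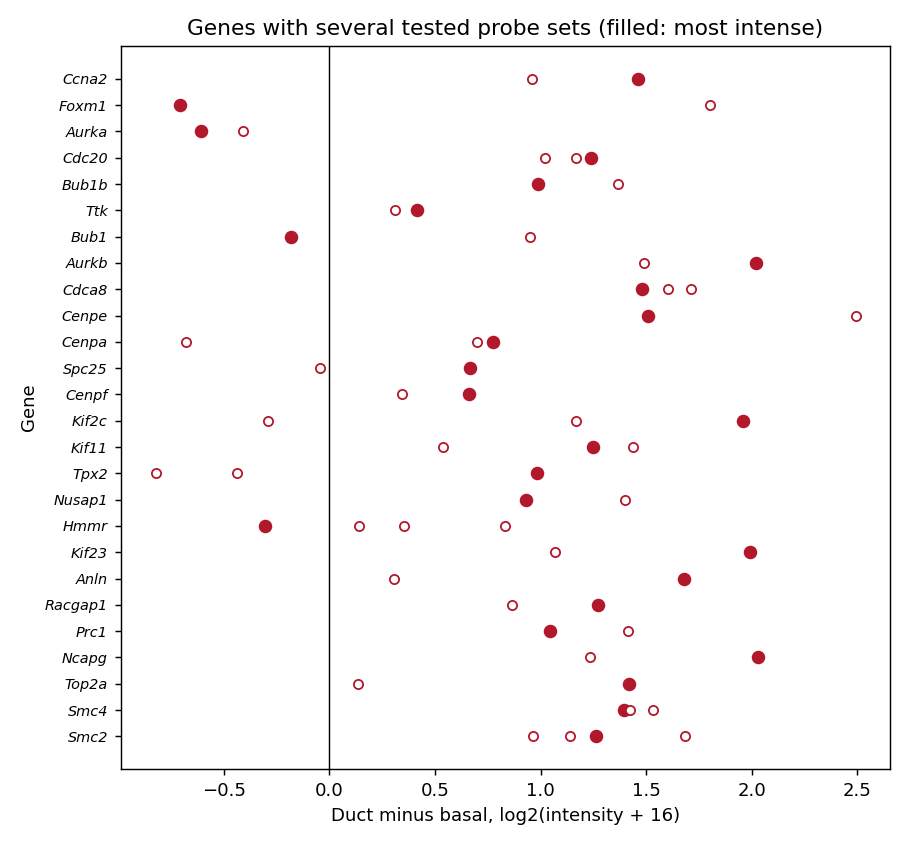
Difference between duct and basal arrays (log2) for every tested probe set of the genes with several, 1 row per gene, with the most intense probe set marked apart from the others. Values fall on both sides of 0 in 7 genes and on the negative side alone in Aurka.

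The duct pools differed among themselves, and the pool of duct replicate 2 had the lowest levels of these genes. It was the lowest duct array in 32 of the 39 genes and the highest in 0, while over all genes it was the lowest in 27.8% and the highest in 33.5%. Duct replicate 1 was the highest in 25 genes and duct replicate 3 in 14. The median difference from the mean of the other duct arrays was 0.41 for replicate 1, -0.60 for replicate 2 and 0.18 for replicate 3, against -0.04, 0.06 and 0.04 over all genes. With each array centred on its median the values were 1.02, -0.91 and -0.13, so the sign for replicate 3 turned, and all genes then had 0.57, -0.25 and -0.27. Each pool is 1 array, so these differences have no replicate check and no test was made.

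The gap to the basal arrays was present in each duct pool. Set against the mean of the basal arrays, the median over the members was 1.53 for duct replicate 1, 0.91 for replicate 2 and 1.40 for replicate 3, against -0.18, -0.03 and -0.05 over all genes. The difference was positive in 34, 35 and 37 of the 39 genes in turn. It was over 1 in 33, 14 and 26 of them, against 7.40%, 6.85% and 8.67% of all genes. Between the basal pools the genes went both ways, with replicate 1 above replicate 2 in 24 genes and a median difference of 0.22. In 11 genes replicate 1 was higher by over 0.5, and in 8 it was lower by over 0.5. Within groups, the median SD of log2 values was 0.35 on the basal and 0.41 on the duct arrays, against 0.25 and 0.34 over all genes. Prc1 varied least among the duct arrays (1.16-fold from lowest to highest).

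**Figure D5:**
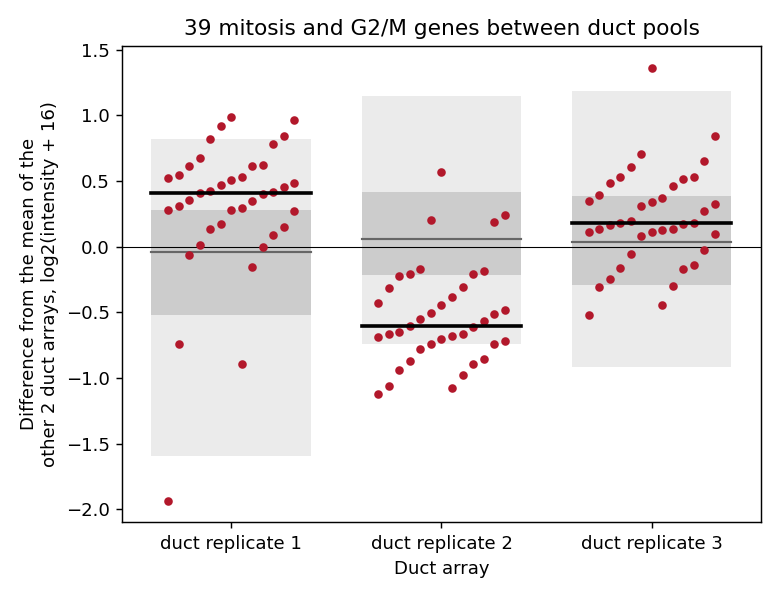
Difference of each duct array from the mean of the other duct arrays (log2), 1 point per tested gene of the 39, with a black line at their median. Dark and light bands span the 25th to 75th and the 5th to 95th percentiles of all 12536 tested genes, with a grey line at the median. The points of duct replicate 2 lie mostly below 0 (35 of 39), with a median of -0.60.

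On duct replicate 2 the sum of leukocyte markers, 14206, was the lowest of the duct arrays through Lyz2 (12275 against 19517 and 18187), while the leukocyte genes Laptm5 (958 against 338 and 296) and Cd74 (363 against 110.1 and 314) were highest there. The fibroblast sum (4247), the endothelial sum (791) and the erythroid sum (203) were also the highest of the duct arrays, and the club cell sum (72391) and the pan-epithelial sum (49407) the lowest. The thyroid sum, 16406, lay between the others. The median intensity was 149 on duct replicate 2 and 92.3 on duct replicate 1, and the share of probe sets above background was 74.6% and 67.2%. Whether any of these bears on the order of the pools was not tested.

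Other genes of the cell cycle were described in the same way, by lists written from textbook knowledge but with earlier results of these data known. Of 60 further mitosis genes 53 were tested, and 46 had a positive difference, with a median of 0.68. The duct arrays did not overlap the basal ones in 29 that were higher and 1 that was lower. The shares of all genes without such overlap were 16.5% and 22.6% in turn. By limma 0 were called, and at an unadjusted p under 0.05 there were 20 higher and 0 lower. Among all genes, 0.838% were called higher and 0.136% called lower, and 7.91% and 10.6% passed without adjustment. Kif22, a chromosome arm motor, had the largest difference, with 218 and 776 in the basal pools and 2137, 1739 and 1669.5 in the duct pools (2.11, adjusted p = 0.129). Ska2, of the kinetochore, had the lowest, at -0.79. Duct replicate 2 was the lowest duct array in 28 of the 53.

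Genes of DNA replication and S phase lay in the same direction with a smaller median, 0.66 over 35 genes. By limma 0 were called, and at an unadjusted p under 0.05 there were 13 higher and 0 lower, against 7.91% and 10.6% of all genes. In 19 every duct array was above both basal arrays and in 1 below, against 16.5% and 22.6% of all genes. Pole, the catalytic subunit of DNA polymerase epsilon, was below background on both basal arrays and at least 3.25-fold higher in duct cells (adjusted p = 0.0757). Gins3, of the replicative helicase, was the lowest at -0.80. Duct replicate 2 was the lowest duct array in 19 of the 35.

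Another 3 lists had medians closer to that of all genes. For 13 subunits of the anaphase promoting complex the median was 0.05, with 0 called by limma and 1 higher against 0 lower with an unadjusted p under 0.05, and the values ran from -0.45 in Cdc23 to 0.86 in Anapc1. The 8 tested G1 cyclins and kinases had a median of 0.07, with 0 called and 1 higher and 0 lower at the unadjusted threshold, from -0.61 in Ccnd3 to 0.87 in Cdk2. For the 18 E2F, Myb-MuvB and pocket protein genes, regulators of the list described here, it was 0.08, with 0 called, 3 higher and 1 lower, from -1.26 in Lin52 to 1.27 in E2f8. Of all genes, 7.91% were higher and 10.6% lower at the unadjusted threshold. All duct arrays lay above both basal arrays in 2, 2 and 5 genes of these lists in turn, against 16.5% of all genes. They lay below both in 0, 0 and 6, against 22.6%.

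Inhibitors of cyclin-dependent kinases, which hold the cycle back, pointed in both directions. Of the 5 tested, limma called 0, and the median was 0.51. At an unadjusted p under 0.05 there were 2 higher and 0 lower, against 7.91% and 10.6% of all genes. Cdkn2b measured 184 and 367 in the basal pools and 1141, 1071 and 646 in the duct pools (1.77, adjusted p = 0.113), without overlap. Cdkn1b measured 3055 and 2621 in the basal pools and 1705, 895 and 2243 in the duct pools (-0.90, adjusted p = 0.329), and all duct arrays were below both basal ones. Cdkn1a, a gene chosen with its values in view, measured 5241 and 4634 in the basal pools and 14165, 11838 and 12949 in the duct pools (1.39, adjusted p = 0.0691). This inhibitor, p21, and Mki67 were thus both higher on every duct array than on either basal array.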

How the data were processed

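The authors deposited 1 table of linear intensities per probe set of the Affymetrix Mouse Genome 430 2.0 Array. Its values show that each array was scaled, with a mean after dropping the lowest and highest 2% of 500.0. How probe sets were summarised and background removed, and with which software, is not given in the sources used. The platform annotation gave 1 gene symbol to 34945 probe sets, several to 932 and none to 9160. The 64 control probe sets were left out.

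Log2 values of the deposited intensities (plus a pseudocount of 16) were computed with no further normalization. The most intense probe set by mean log2 value stood for a gene, and the lowest 40% of probe sets were left out. Groups were compared on all 5 arrays by the 2-sided moderated test of limma 3.58.1 (lmFit, eBayes; R 4.3.3, with statmod 1.5.0 for the robust fit), without covariates, adjusted by Benjamini-Hochberg over 12536 genes or 27022 probe sets, with a threshold of 0.05. Residual degrees of freedom were 3 and prior ones 2.79, and with so few arrays precision is limited. The script was tested on simulated data. A bound against background is the ratio of the geometric mean of the duct intensities to that of the basal arrays, each at the level of its brightest Bacillus control probe set. Alternatives were other normalizations, pseudocounts, filters and choices of probe set, an intensity trend, a replicate block and leaving out each array.

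Every member is named. Values on each array are given for Mki67, Foxm1, Cdk1 and Plk1. They are also given for the largest and smallest difference of each role group and for members whose tested probe sets differ in sign. Values of Ccnf, Cdkn1a and Incenp and of second probe sets were added after they were seen. Of other lists, the members with the largest and smallest difference are named. The members and lists were chosen with earlier results of these data known. Promoter windows came from RefSeq. Figures were drawn with matplotlib 3.10.9.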

Additional observations from a re-analysis of the deposited data

How the results depend on the processing

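The direction of the group of mitosis genes held under every alternative run, with a median of 1.01 to 1.48. All duct arrays lay above both basal arrays in 26 to 34 members, against 13.7% to 27.6% of all genes. Of 581 recomputed differences of single members, 530 kept their sign and their side of the threshold, 33 came to pass it, 7 no longer passed it and 11 changed sign. Genes called in all (122) became 338 with median centring, 307 with a pseudocount of 64, 36 with no filter, 408 with a 60% filter, 191 with the mean of probe sets and 942 with an intensity trend and robust fit, and 0 to 39 with 1 array left out. Members called higher (1) became 6, 4, 0, 9, 2 and 17 in the same order, and 0 with any array left out. Probe sets called in all (63) became 101 with quantile normalization, 375 with median centring, 182 with a pseudocount of 64, 27 with no filter, 341 with a 60% filter and 1215 with the trend, and 0 to 24 with 1 array left out. The cause was not tested.

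The difference of Foxm1 became 0.22 with the mean of probe sets and 1.80 without possibly cross-hybridising probe sets, and that of Hmmr 0.38 and 0.14. For Bub1 it became 0.11 with quantile normalization, 0.024 with median centring and 0.39 with the mean of probe sets. With 1 array left out it ran from -0.64 to 1.00, and it was 0.46 without duct replicate 1. The 1.00 came without basal replicate 2, where the second probe set of Bub1 was the most intense and stood for the gene. That value is therefore not a change of the leading probe set. Tpx2 became -0.20 with the mean of probe sets and Ttk ran from -0.12, without basal replicate 1, to 0.95, without basal replicate 2. The difference of duct replicate 3 from the other duct arrays became -0.13 with median centring. The cause was not tested.

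With a replicate block, 0 genes, 0 members and 0 probe sets were called, and Ndc80 had a difference of 2.41 (limma, adjusted p = 0.295). The pools are separate, and the labels do not say that the replicate numbers pair them. Deviations of same-numbered arrays correlated at -0.08 and -0.04 across genes. With 2 basal arrays, whose deviations mirror each other, these 2 values are not independent. Whether same-numbered pools shared a preparation was not tested. Leaving out a basal array leaves that group with 1 array, which is then assumed to vary like the duct arrays. Of the 92 probe sets, 16 were too dim to test.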
